A study of Mus musculus with 2 samples.

Results

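Neuronal and glial genes were examined in mouse embryonic fibroblasts (MEFs), connective-tissue cells cultured from embryos, on 1 array of MatDup.dist7 cells and 1 array of PatDup.dist7 cells. The set comprised 36 genes named by symbol, chosen with earlier results of these data known, and all 36 were measured, out of 19938 genes with a value. It covered 23 genes of neurons, 4 of neural progenitors, 6 of Schwann cells and other glia, and 3 of catecholamine-releasing or granule-storing neuroendocrine cells. MatDup.dist7 cells carry 2 maternal copies of distal chromosome 7 and PatDup.dist7 cells 2 paternal copies. Each culture derived from embryos at 13.5 days post coitum and was grown in serum-containing medium. The sources used here do not say whether a culture came from 1 embryo or a pool. None of the 36 genes lies on chromosome 7, and 3 lie on the X chromosome.

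Neurons are built around a stable axonal cytoskeleton of tubulin, microtubule-binding proteins and neurofilaments, and they release transmitter from vesicles through a fusion machinery of SNARE proteins, synaptotagmins and Rab3 proteins. In most non-neuronal cells many of these genes are held down by the repressor REST and its corepressors. Cultures made from whole or partly dissected embryos can hold cells of the neural crest lineage, which gives rise to Schwann cells, sympathetic neurons and adrenal medulla as well as to some connective tissue. The genes differ in how closely they mark neural cells: nestin (Nes), Ncam1, Uchl1 and Ngfr are also found in mesenchymal cells, whereas synaptic and granule proteins are largely neural or neuroendocrine.

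With 1 array per genotype there was no replicate, so no difference was tested against the variation between cultures and no p-value is given. Having so few arrays limits how precise any value can be. Differences are given as MatDup.dist7 minus PatDup.dist7 on the log2(intensity + 16) scale, where 1 is a 2-fold difference. At low signal the added 16 makes a difference smaller than the ratio of the deposited intensities. Without replicates, which of these is nearer the true difference cannot be told. The spread between probe sets of the same gene gives the only measure of error within the arrays. For 1931 probe sets of 724 genes that passed the signal filter given below, the standard deviation of the log2 difference was 0.43. It holds no variation between cultures. Nor does it cover genes under the filter, among them 12 of the 36 members. Of the 36 genes, 20 had a difference smaller than this in size.

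Among the neuronal and glial genes, 4 exceeded PatDup.dist7 by at least 2-fold on the MatDup.dist7 array, namely Stmn2, Rab3b, L1cam and Elavl4, and 1, Syt1, exceeded MatDup.dist7 to that extent on the PatDup.dist7 array. Over all 19938 genes, 4.47% were higher by at least 2-fold in MatDup.dist7 cells and 3.16% in PatDup.dist7 cells. The members' shares were 11.1% and 2.78%. The remaining 31 genes lay within 2-fold, with differences between -0.85 and 0.93. Of the 36 differences 23 were positive and 13 negative. The median difference was 0.24, beside 0.02 over all genes, and the share of positive differences was 63.9%, beside 51.4% over all genes. The median size of the difference, regardless of direction, was 0.37 for the members and 0.38 for all genes. With a 3-fold rule, 2 members (Stmn2 and Rab3b) were higher in MatDup.dist7 cells and 0 in PatDup.dist7 cells, beside 0.818% and 0.552% of all genes. When the members were chosen, Stmn2 and Rab3b were already known to be among the largest differences in these data. The members' shares are therefore descriptions only.

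**Figure D1:**
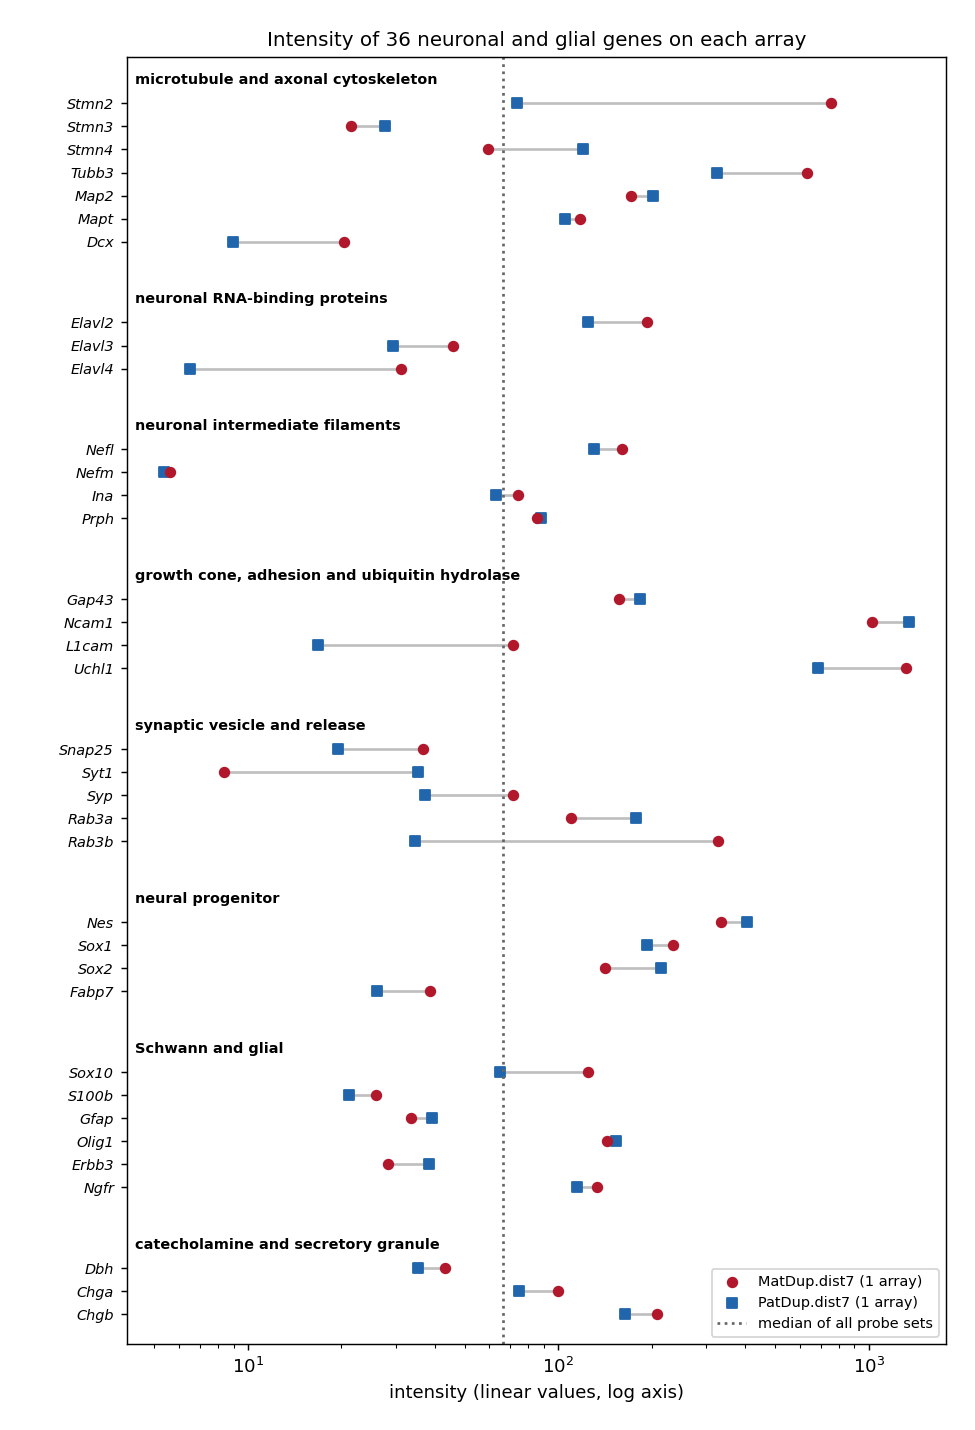
Intensity of each of the 36 genes on the MatDup.dist7 array (red circles) and the PatDup.dist7 array (blue squares), on a log axis, grouped by role, with the mean shown for Stmn3 and Ina, which have 2 probe sets. The dotted line marks the median of all probe sets, 66.4. Points are to be compared within a gene, and the widest gaps are those of Stmn2 (755 against 73.7) and Rab3b (327 against 34.6).

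An intensity of 66.4, the median of all probe sets, was used as a signal filter on the array with the higher value. It was passed by 24 of the 36 genes (66.7%), beside 63.9% of all genes. Among these, 18 lay above it on both arrays, 5 on the MatDup.dist7 array alone and 1 on the PatDup.dist7 array alone. Of the 24, 3 were higher by at least 2-fold in MatDup.dist7 cells and 0 in PatDup.dist7 cells, beside 2.74% and 2.42% of the 12733 genes above the filter. Genes that pass through the array where they are high can differ more readily, so these shares are descriptions only. No member had a value under 1 on either array. An array signal at or under the median does not by itself show that a transcript is present or absent.

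Upstream sequence is shown for genes of the release machinery and adhesion that stood far apart or in opposite directions: Rab3b, its paralog Rab3a, L1cam and Syt1. Each is the stretch of 250 bases before the most upstream RefSeq start, 5′ to 3′ on the gene's strand, from build GRCm38.p6. The positions are chr4:108878820-108879069 (plus strand) for Rab3b, chr8:70754453-70754702 (plus strand) for Rab3a, chrX:73880835-73881084 (minus strand) for L1cam and chr10:109010976-109011225 (minus strand) for Syt1. Capitals mark, on either strand, the GC box GGGCGG, the TATA element TATAAA and the CCAAT box CCAAT.
Rab3b: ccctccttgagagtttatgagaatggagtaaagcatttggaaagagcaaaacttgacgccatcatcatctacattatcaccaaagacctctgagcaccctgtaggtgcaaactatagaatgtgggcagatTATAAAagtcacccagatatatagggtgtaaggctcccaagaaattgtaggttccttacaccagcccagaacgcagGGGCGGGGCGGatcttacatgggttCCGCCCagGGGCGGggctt
Rab3a: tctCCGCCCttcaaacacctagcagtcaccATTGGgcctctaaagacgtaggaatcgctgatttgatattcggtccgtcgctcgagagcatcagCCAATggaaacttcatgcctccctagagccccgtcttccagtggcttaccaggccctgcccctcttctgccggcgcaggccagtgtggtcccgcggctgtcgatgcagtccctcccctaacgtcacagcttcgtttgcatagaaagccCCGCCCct
L1cam: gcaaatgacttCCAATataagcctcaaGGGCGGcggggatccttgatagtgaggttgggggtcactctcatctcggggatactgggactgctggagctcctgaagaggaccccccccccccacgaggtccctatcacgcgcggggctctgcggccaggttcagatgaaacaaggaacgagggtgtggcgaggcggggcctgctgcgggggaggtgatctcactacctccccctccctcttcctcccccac
Syt1: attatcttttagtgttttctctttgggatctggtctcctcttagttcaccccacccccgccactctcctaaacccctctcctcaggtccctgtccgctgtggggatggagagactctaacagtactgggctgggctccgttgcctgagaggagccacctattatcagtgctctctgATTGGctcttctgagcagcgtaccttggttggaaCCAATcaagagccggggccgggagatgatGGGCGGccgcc
The Rab3b stretch holds 1 TATA element and 4 GC boxes, of which a neighbouring pair shares 1 base. Rab3a has no TATA element, 2 GC boxes and 2 CCAAT boxes. L1cam has 1 GC box and 1 CCAAT box, and Syt1 has 1 GC box and 2 CCAAT boxes. Among all 32851 stretches of this length in the RefSeq promoter table, 12.4% hold a TATA element, 32.7% a GC box and 33.8% a CCAAT box. The corresponding counts among the 25 neuronal and glial genes with an entry, each taken at its most upstream start, were 4, 16 and 11. The E-box CANNTG, the target of neurogenic basic helix-loop-helix factors among others, was found in 11 of the 25 and in 66.2% of all stretches. These matches describe the letters of the sequence and show no binding.

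The cytoskeletal genes were led by Stmn2. This gene encodes stathmin-2 (SCG10), a membrane-bound regulator of microtubule dynamics in growing axons. Its intensity was 755 in MatDup.dist7 cells and 73.7 in PatDup.dist7 cells, a log2 difference of 3.10 or 8.59-fold on the log2(intensity + 16) scale, and the ratio of the deposited intensities was 10.2. Ordered by the excess in MatDup.dist7 cells, it stood at rank 6 of the 19938 genes. Other stathmins did not share this difference. Stmn4 had 59.5 in MatDup.dist7 cells and 120 in PatDup.dist7 cells (difference -0.85), and Stmn3 had 9.02 and 34.0 at its probe sets in MatDup.dist7 cells against 11.6 and 43.6 in PatDup.dist7 cells (mean difference -0.20). The broadly expressed stathmin gene Stmn1, which is no member, averaged 219 in MatDup.dist7 cells and 144 in PatDup.dist7 cells over its probe sets (0.56).

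Tubb3, the neuronal class III beta-tubulin used to stain young neurons, had 633 in MatDup.dist7 cells and 324 in PatDup.dist7 cells. Its difference of 0.93 was just short of 2-fold and was exceeded in size by 9.55% of all genes. Dcx, which encodes doublecortin of migrating neurons and lies on the X chromosome, had 20.4 in MatDup.dist7 cells and 8.95 in PatDup.dist7 cells, both low signals (0.54). The genes of the main microtubule-associated proteins of dendrites and axons were nearly level. Map2 had 171 in MatDup.dist7 cells and 201 in PatDup.dist7 cells (-0.22), and Mapt, which encodes tau, had 118 and 105 in the same order (0.15). Among 17 further stathmin, tubulin and microtubule-associated genes, 2 were higher by at least 2-fold in MatDup.dist7 cells and 0 in PatDup.dist7 cells, with a median difference of 0.07. They were Tubb4a, a brain beta-tubulin gene (90.2 in MatDup.dist7 cells, 28.2 in PatDup.dist7 cells), and Crmp1, which encodes a collapsin response mediator of growth cones (143 in MatDup.dist7 cells, 47.4 in PatDup.dist7 cells), with differences of 1.27 and 1.33.

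The genes of the 3 neuronal Hu proteins, which bind AU-rich elements in messenger RNAs, were all higher in MatDup.dist7 cells. Elavl2 had 193 in MatDup.dist7 cells and 124 in PatDup.dist7 cells (0.58). Elavl3 had 45.7 in MatDup.dist7 cells and 29.4 in PatDup.dist7 cells (0.44). Elavl4 had 31.2 in MatDup.dist7 cells and 6.50 in PatDup.dist7 cells (1.07). Elavl4 was the only 1 of them past 2-fold. Elavl3 and Elavl4 were under the signal filter on both arrays. The ubiquitous family member Elavl1, looked up after these values were seen, had 1179 in MatDup.dist7 cells and 1349 in PatDup.dist7 cells (-0.19).

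Neurofilament and related genes differed little. Nefl, the light neurofilament chain, had 160 in MatDup.dist7 cells and 131 in PatDup.dist7 cells (0.26), and Nefm, the medium chain, had low signals of 5.61 in MatDup.dist7 cells and 5.37 in PatDup.dist7 cells (0.02). Prph, which encodes peripherin of peripheral neurons, had 85.6 in MatDup.dist7 cells and 88.1 in PatDup.dist7 cells (-0.03). The probe sets of Ina, which encodes alpha-internexin, disagreed. The brighter one had 106 in MatDup.dist7 cells and 107 in PatDup.dist7 cells (-0.02), the dimmer one 42.6 in MatDup.dist7 cells and 18.8 in PatDup.dist7 cells (0.75), and their mean difference was 0.37.

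Among growth cone and adhesion genes, L1cam, the gene of a homophilic axonal adhesion molecule, stood out with 71.6 in MatDup.dist7 cells and 16.9 in PatDup.dist7 cells (difference 1.41, or 2.66-fold). The other major neural adhesion gene, Ncam1, went the opposite way, with 1023 in MatDup.dist7 cells and 1344 in PatDup.dist7 cells (-0.39). Uchl1, which encodes the abundant neuronal ubiquitin hydrolase PGP9.5, had 1321 in MatDup.dist7 cells and 689 in PatDup.dist7 cells (0.92, under 2-fold). Gap43, a growth cone membrane protein gene, had 157 in MatDup.dist7 cells and 184 in PatDup.dist7 cells (-0.21). These genes were thus split between both directions. The negative differences of Ncam1 and Gap43 were smaller in size than the spread of 0.43 between probe sets.

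L1cam, Dcx and Syp are the 3 members on the X chromosome, and all were higher in MatDup.dist7 cells. Transcripts specific to 1 sex differed as well: for the Y-linked Eif2s3y, Uty and Kdm5d, intensities were 112, 77.9 and 122 in MatDup.dist7 cells against 6.44, 2.61 and 22.9 in PatDup.dist7 cells. Xist, made from the inactive X chromosome, stood at 0.00166 in MatDup.dist7 cells and 91.2 in PatDup.dist7 cells. Genotype and the sex of the cultures therefore cannot be told apart for any gene. Without the X-linked members, 3 genes were higher by at least 2-fold in MatDup.dist7 cells and 1 in PatDup.dist7 cells, and the median difference of the other 33 was 0.19.

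Genes of vesicle release spread in both directions. Rab3b, encoding a vesicle-bound GTPase of regulated secretion, had 327 in MatDup.dist7 cells and 34.6 in PatDup.dist7 cells, a difference of 2.76 or 6.78-fold, at rank 9 of all genes by the excess in MatDup.dist7 cells. Rab3a, the main Rab3 gene of synapses, went the other way with 110 in MatDup.dist7 cells and 178 in PatDup.dist7 cells (-0.63). The remaining family members were close to equal: Rab3c had 42.4 in MatDup.dist7 cells and 32.8 in PatDup.dist7 cells (0.26), and Rab3d had 52.3 and 59.1 in the same order (-0.14). Some regulators of Rab3 nucleotide state were named after their values were seen. Each of the GTPase-activating subunit genes Rab3gap1 and Rab3gap2 had a difference of -0.27, smaller in size than the spread of 0.43 between probe sets. The exchange factor gene Madd had a difference of -0.52 (51.6 in MatDup.dist7 cells, 81.1 in PatDup.dist7 cells).

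Syt1, which encodes the calcium sensor of fast transmitter release, had 8.37 in MatDup.dist7 cells and 35.3 in PatDup.dist7 cells (difference -1.07), both under the signal filter. Its partner in fusion, the SNARE gene Snap25, had 36.7 in MatDup.dist7 cells and 19.5 in PatDup.dist7 cells (0.57), also both under the filter. Syp, the gene of the vesicle membrane protein synaptophysin, had 71.5 in MatDup.dist7 cells and 37.2 in PatDup.dist7 cells (0.72). The vesicle genes thus had 3 positive and 2 negative differences, each from 1 array per genotype.

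Further genes of the same machinery gave a similar mixture. Of 13 Rab3 relatives and effectors, 2 were higher by at least 2-fold in MatDup.dist7 cells and 11 within 2-fold, with a median of -0.04. The pair was Rab27b, a GTPase gene of secretory granules (80.4 in MatDup.dist7 cells, 27.9 in PatDup.dist7 cells, difference 1.14), and its paralog Rab27a (35.0 in MatDup.dist7 cells, 2.56 in PatDup.dist7 cells, 1.46), named after its values were seen because it lay under the filter. Of 23 measured SNARE and vesicle genes, 17 differences were positive, with a median of 0.25, and 1 gene was past 2-fold in each direction. Both lay under the filter and were singled out after their values were seen or as the largest difference of the list. Syt4, a synaptotagmin gene, had 49.9 in MatDup.dist7 cells and 4.32 in PatDup.dist7 cells (1.70). Cplx2, which encodes the SNARE-binding protein complexin-2, was listed at 0.0110 in MatDup.dist7 cells and 47.9 in PatDup.dist7 cells, which is 3.99-fold higher in PatDup.dist7 cells on the log2(intensity + 16) scale, a size set by the pseudocount. The non-neuronal paralog of Snap25, Snap23, had 401 in MatDup.dist7 cells and 342 in PatDup.dist7 cells (0.22).

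**Figure D2:**
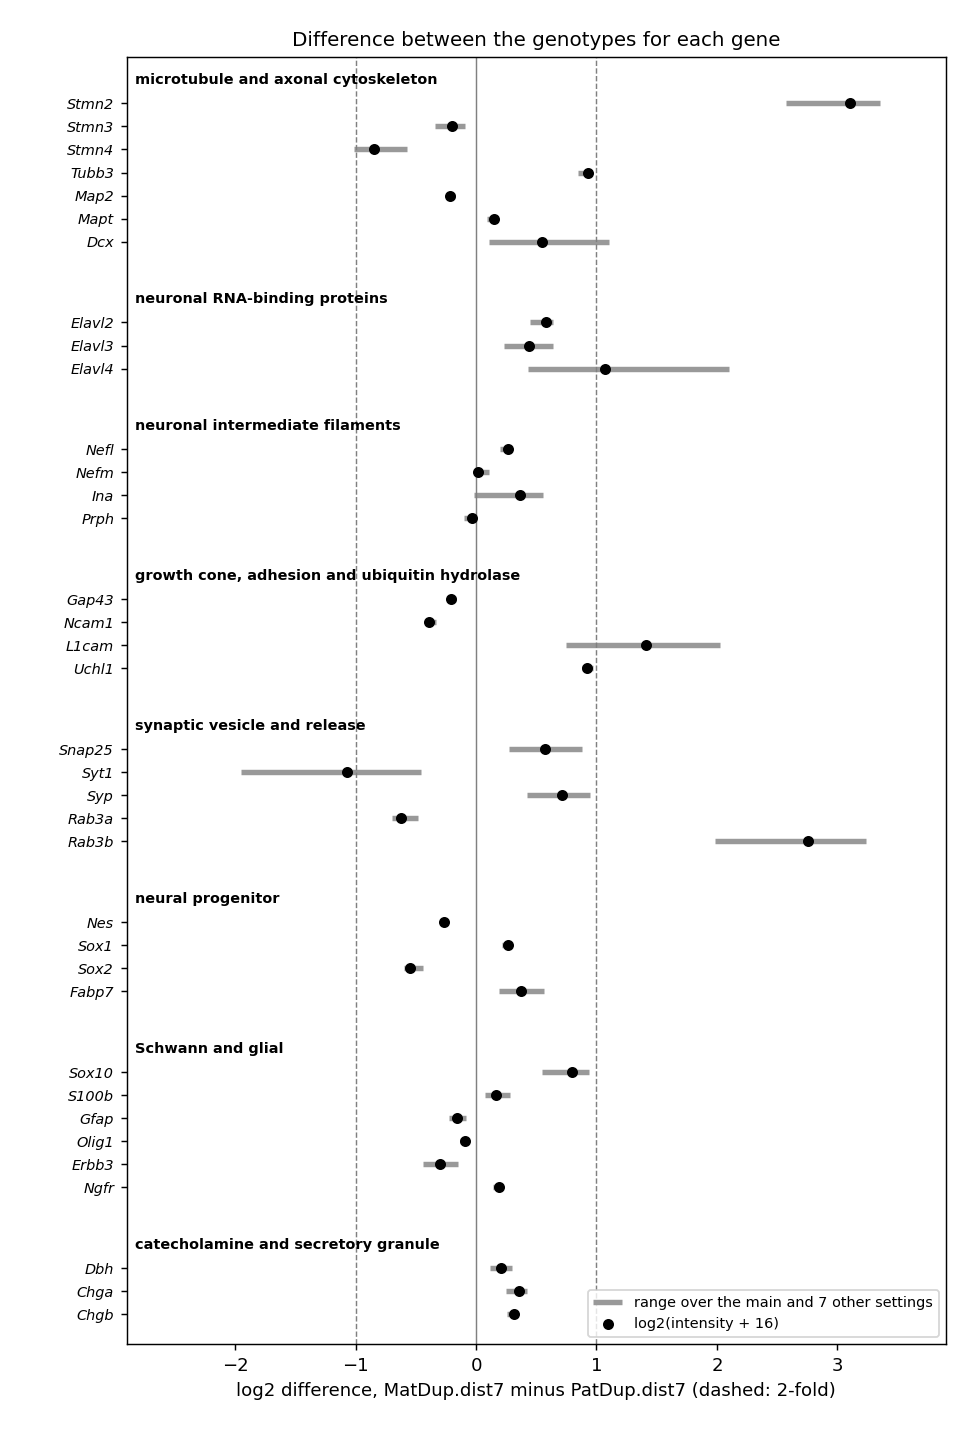
Log2 difference (MatDup.dist7 minus PatDup.dist7) of each of the 36 genes, grouped by role, with black points at log2(intensity + 16) and grey bars spanning this value and those under 7 other settings of the pseudocount, scaling and probe sets. Dashed lines mark 2-fold. Stmn2 and Rab3b stay past 2-fold along their whole bars, at least 2.57 and 1.99, whereas the bars of L1cam, Elavl4, Syt1, Dcx and Stmn4 cross a dashed line.

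The progenitor genes were balanced between the genotypes, with 2 positive and 2 negative differences and a median of -0.0025. Nes, the nestin intermediate filament gene, had 335 in MatDup.dist7 cells and 406 in PatDup.dist7 cells (-0.27). The neural plate transcription factor genes Sox1 and Sox2 had differences of 0.26 (235 in MatDup.dist7 cells, 193 in PatDup.dist7 cells) and -0.55 (141 in MatDup.dist7 cells, 214 in PatDup.dist7 cells). Fabp7, the gene of the fatty acid-binding protein of radial glia, had 38.7 in MatDup.dist7 cells and 26.1 in PatDup.dist7 cells (0.38). None of 12 other progenitor genes reached 2-fold, and the largest difference among them was that of the receptor gene Notch1, with 136 in MatDup.dist7 cells and 244 in PatDup.dist7 cells (-0.78).

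Schwann and glial genes were likewise within 2-fold. Sox10, the transcription factor gene that marks neural crest and Schwann cells, had the largest difference, 0.79, with 124 in MatDup.dist7 cells and 65.0 in PatDup.dist7 cells. Its target Erbb3, the neuregulin receptor gene of Schwann cell precursors, had a difference of the opposite sign (-0.30). Its values, 28.3 in MatDup.dist7 cells and 38.4 in PatDup.dist7 cells, were both under the signal filter. Ngfr, the low-affinity neurotrophin receptor gene, had 133 in MatDup.dist7 cells and 115 in PatDup.dist7 cells (0.19). Olig1, of the oligodendrocyte lineage, had 143 in MatDup.dist7 cells and 154 in PatDup.dist7 cells (-0.09). S100b, a calcium-binding protein gene of glia, had 25.8 in MatDup.dist7 cells and 21.2 in PatDup.dist7 cells (0.17), and Gfap, the astrocyte filament gene, 33.6 in MatDup.dist7 cells and 39.2 in PatDup.dist7 cells (-0.16).

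Of 19 other neural crest and Schwann genes, 0 were higher by at least 2-fold in MatDup.dist7 cells and 2 in PatDup.dist7 cells. These were Tfap2a, a transcription factor gene of neural crest and surface ectoderm (18.1 in MatDup.dist7 cells, 97.1 in PatDup.dist7 cells, difference -1.73), and Postn, a matrix gene also expressed by fibroblasts (520 in MatDup.dist7 cells, 1788 in PatDup.dist7 cells, -1.75). In the astrocyte and oligodendrocyte list, 1 of 9 passed 2-fold: Cspg4, the NG2 proteoglycan gene, which pericytes also express (257 in MatDup.dist7 cells, 113 in PatDup.dist7 cells, 1.09).

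Dbh, Chga and Chgb belong to catecholamine synthesis and the secretory granule, and all 3 were slightly higher in MatDup.dist7 cells. Dbh, the gene of dopamine beta-hydroxylase, which makes noradrenaline, had 43.3 in MatDup.dist7 cells and 35.2 in PatDup.dist7 cells (0.21). Chga had 100.2 in MatDup.dist7 cells and 74.5 in PatDup.dist7 cells (0.36), and Chgb had 209 in MatDup.dist7 cells and 164 in PatDup.dist7 cells (0.32). The chromogranins are acidic proteins that pack the granule. Each difference was smaller than the spread of 0.43 between probe sets. That spread comes from genes above the signal filter, and Dbh lay under it.

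Larger differences occurred elsewhere in this pathway. Slc6a2, the noradrenaline transporter gene, had 69.7 in MatDup.dist7 cells and 5.26 in PatDup.dist7 cells (2.01). Th, for tyrosine hydroxylase, the first enzyme of catecholamine synthesis, had 75.6 in MatDup.dist7 cells and 2.72 in PatDup.dist7 cells (2.29). Both PatDup.dist7 values were low, so the pseudocount sets much of these differences. With a pseudocount of 64 they were 0.95 for Slc6a2, within 2-fold, and 1.06 for Th. With a pseudocount of 1 they were 3.50 and 4.37. Th lies on chromosome 7, unlike the 36 members. Its position relative to the distal part that differs between the genotypes was not examined here. The steps between and after Th and Dbh had intermediate differences, of 0.61 for Ddc (171 in MatDup.dist7 cells, 106 in PatDup.dist7 cells) and 0.83 for Pnmt (92.4 in MatDup.dist7 cells, 44.8 in PatDup.dist7 cells). Of 14 measured catecholamine and granule genes outside the members, Th and Slc6a2 were the 2 past 2-fold in MatDup.dist7 cells, 0 were past it in PatDup.dist7 cells, and the median was 0.30.

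Regulators of the neuronal programme were nearly all within 2-fold. Rest, which encodes the repressor of neuronal genes, had 166 in MatDup.dist7 cells and 287 in PatDup.dist7 cells (-0.74). Its corepressor gene Rcor1 had 241 in MatDup.dist7 cells and 419 in PatDup.dist7 cells (-0.76), while the related Rcor2 had 312 and 304 in the same order (0.04); both were picked out after their values were seen. Among 21 measured neuronal transcription regulators, 1 was at least 2-fold higher in each genotype: Isl1, a LIM homeobox gene of motor and sensory neurons (44.6 in MatDup.dist7 cells, 5.64 in PatDup.dist7 cells, 1.49, under the filter and named after its value was seen), and Gata3, of sympathetic neurons and several other tissues (47.7 in MatDup.dist7 cells, 115 in PatDup.dist7 cells, -1.04). Of 4 measured neurotrophin ligand and receptor genes, Bdnf was just past 2-fold in MatDup.dist7 cells (204 there and 93.5 in PatDup.dist7 cells, 1.01). Sort1, the sortilin gene, was past it in PatDup.dist7 cells (51.3 in MatDup.dist7 cells, 125 in PatDup.dist7 cells, -1.07). With a pseudocount of 64 both lay within 2-fold, at 0.77 and -0.72, and Bdnf did so after quantile normalisation as well (0.96).

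Over all these further lists, with each gene counted once and the members left out, 10 of 131 measured genes (7.63%) were higher by at least 2-fold in MatDup.dist7 cells and 5 (3.82%) in PatDup.dist7 cells, beside 4.47% and 3.16% of all genes. These lists too were chosen with earlier results of these data known, so the shares are descriptions only. Th, on chromosome 7, is among the 10. So are Rab27a, Syt4 and Isl1, which lay under the signal filter, as did Cplx2 among the 5. The median difference of the 131 genes was 0.16. A total of 11 listed genes were not analysed here.

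**Figure D3:**
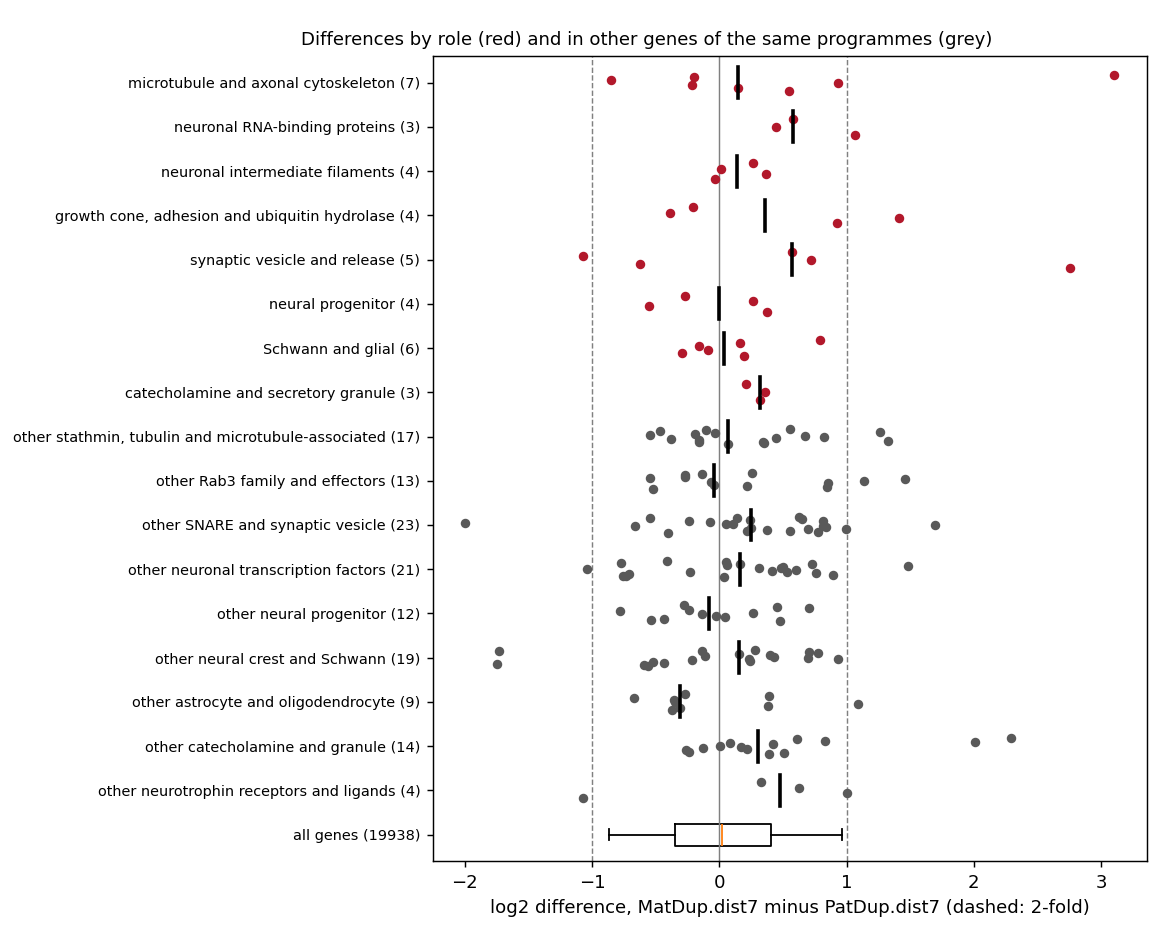
Log2 difference (MatDup.dist7 minus PatDup.dist7) of the 36 genes by role (red) and of other genes of the same programmes (grey), with the number measured in brackets. Black bars are medians, dashed lines mark 2-fold, and the box for all 19938 genes shows the quartiles with whiskers at the 5th and 95th percentiles, -0.87 and 0.96. Role medians lie between -0.0025 (progenitors) and 0.58 (RNA-binding proteins).

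Marker panels give the cellular background of these values. Of 14 fibroblast markers, 12 lay above the signal filter's intensity on each array, their summed intensity was 45379 in MatDup.dist7 cells and 53005 in PatDup.dist7 cells, and none reached 2-fold. The largest difference among them was that of Fap, the gene of fibroblast activation protein, at 4.04 in MatDup.dist7 cells and 23.1 in PatDup.dist7 cells (-0.97). A panel of 7 neuronal markers (Stmn2, Tubb3, Map2, Elavl3, Elavl4, Snap25 and Syt1) summed to 1680 in MatDup.dist7 cells and 690 in PatDup.dist7 cells, and 3 of the 7 lay above that intensity on each array. Without Stmn2 the sums were 926 in MatDup.dist7 cells and 616 in PatDup.dist7 cells. In whole cultures, fewer cells of a type and less RNA per cell cannot be told apart. The 3 measured Schwann markers (Sox10, S100b and Erbb3) summed to 179 in MatDup.dist7 cells and 125 in PatDup.dist7 cells. Sox10 alone made 124 and 65.0 of these sums. S100b had 25.8 and 21.2, whereas Erbb3 went the other way with 28.3 and 38.4. Of the 3, 1 lay above that intensity in MatDup.dist7 cells and 0 in PatDup.dist7 cells. The 4 progenitor markers (Sox1, Sox2, Pax6 and Nes) summed to 791 in MatDup.dist7 cells and 914 in PatDup.dist7 cells. The 3 astrocyte markers, none above that intensity on either array, summed to 83.8 and 123 in the same order.

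Markers of other lineages also differed beside the neuronal genes. All 6 epithelial markers were higher in MatDup.dist7 cells, 2 of them by at least 2-fold, with sums of 778 in MatDup.dist7 cells and 436 in PatDup.dist7 cells. The strongest was Krt19, a simple-epithelium keratin gene (152 in MatDup.dist7 cells, 18.8 in PatDup.dist7 cells, 2.27). Melanocyte markers, another neural crest lineage, were within 2-fold (7 of 7), with sums of 634 in MatDup.dist7 cells and 555 in PatDup.dist7 cells and the largest difference at the receptor gene Kit (121 in MatDup.dist7 cells, 71.6 in PatDup.dist7 cells, 0.65). For 7 skeletal muscle markers the sums were 1088 in MatDup.dist7 cells and 1258 in PatDup.dist7 cells, and 1 marker was past 2-fold. It was Chrna1, an acetylcholine receptor subunit gene under the signal filter (26.2 in MatDup.dist7 cells, 3.37 in PatDup.dist7 cells, 1.12). The 7 macrophage markers summed to 4440 in MatDup.dist7 cells and 4679 in PatDup.dist7 cells, with Mrc1 at least 2-fold higher in PatDup.dist7 cells (31.7 in MatDup.dist7 cells, 103 in PatDup.dist7 cells, -1.32), and the 5 endothelial markers to 249 and 319 in the same order, none past 2-fold. Among these, Kdr, a vascular growth factor receptor gene, had the largest difference (32.1 in MatDup.dist7 cells, 65.1 in PatDup.dist7 cells, -0.75). No marker of these panels was under 1 on either array. The part of cell composition in the differences of the neuronal and glial genes was not tested.

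**Figure D4:**
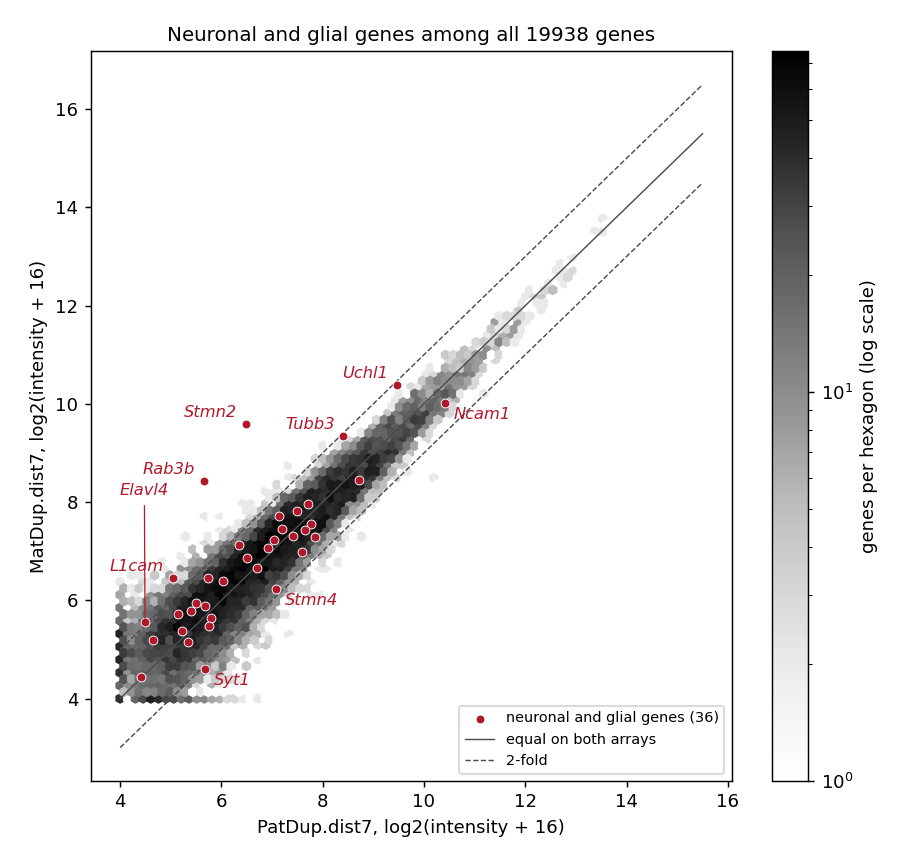
Level of each gene in MatDup.dist7 cells (vertical axis) and PatDup.dist7 (horizontal axis), both as log2(intensity + 16), with all 19938 genes as grey hexagons and the 36 neuronal and glial genes as red points. The solid line marks equality and the dashed lines 2-fold. Stmn2 and Rab3b lie above the upper dashed line, with differences of 3.10 and 2.76, and the 31 genes within 2-fold lie between the dashed lines.

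The order of the largest differences depended on how low signals are treated. With a pseudocount of 1 the differences of Stmn2 and Rab3b were 3.34 and 3.20 and their ranks 319 and 348. With a pseudocount of 64 the differences were 2.57 and 1.99 and the ranks 4 and 7. L1cam, Elavl4 and Syt1 lay within 2-fold with a pseudocount of 64, at 0.75, 0.43 and -0.46.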

How the data were processed

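The authors deposited linear intensities, with 1 value per probe set for each of 2 arrays. Affymetrix Expression Console is the tool named, per the submitters' processing notes; how background, summary and normalisation were handled goes unstated in the sources used here, and the arrays' medians differed (68.6 in MatDup.dist7, 64.2 in PatDup.dist7). Under 1 lay 4.78% and 5.03% of the values, in the same order. Of 35557 probe sets, the 21789 with 1 platform symbol were used; the 36 members had 38 of them, and all 36 gene IDs were found in the RefSeq table of GRCm38.p6, which gave chromosomes. From the deposited intensities, log2(intensity + 16) was computed, probe sets of a gene were averaged, and calls used a 2-fold rule (Python 3.11.15, numpy 2.4.6, pandas 2.3.3). The code was tested on simulated arrays. Members, lists, pseudocount and alternatives were chosen with earlier results of these data known, in which Stmn2 and Rab3b already stood among the largest differences. Named were every member and, in each other list, every gene past 2-fold above the signal filter (50th percentile), or otherwise the largest difference, besides Th and Rest; Stmn1, Elavl1, Rab3c, Rab3d, Rab3gap1, Rab3gap2, Madd, Snap23, Ddc, Pnmt and the genes so described in the text were named outside this rule, after their values were seen. Alternatives were pseudocounts of 1 and 64, a floor at the 25th percentile, median centring, quantile normalisation, the brightest probe set, leaving out probe sets under 1, the filter, a 3-fold rule and, added after seeing the data, leaving out X-linked members.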

Additional observations from a re-analysis of the deposited data

How the results depend on the processing

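The number of members at least 2-fold higher in MatDup.dist7 (4) ranged between 3 and 5 except with a pseudocount of 64 and with a 3-fold rule, which each gave 2 (Stmn2 and Rab3b). The 1 member higher in PatDup.dist7 became 0 under a pseudocount of 64, under a 3-fold rule and above the signal filter. With a floor at the 25th percentile that 1 was Stmn4 in place of Syt1, and this setting moved the median of all genes to 0.11. The median difference of the members lay between 0.16 (pseudocount of 64) and 0.28 (pseudocount of 1, and the floor) under every alternative run. Of the 36 genes, 34 kept their sign over 7 settings; Nefm and Ina did not. No paired analysis was possible because each genotype has 1 array. Low signal on at least 1 array limits Dcx, Elavl4, Syt1 and L1cam, since a pseudocount sets much of their difference. That of L1cam was 2.02 with a pseudocount of 1 and 0.75 with a pseudocount of 64. Rab3b also moved, but stayed past 2-fold on the same scale. Nefm had low signals too, yet its difference stayed between -0.0046 and 0.11.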
